A study of Mus musculus with 6 samples.

Results

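The genes described are 10 markers of hepatocytes around the central vein of the liver lobule, most of which depend on Wnt signalling. They were chosen from knowledge of liver zonation, with earlier results of these data known. Their measurements were all 13 probe sets, of 22626 without controls, annotated with exactly 1 of these symbols. They are 10 of the 12393 genes measured. Glul, Rhbg, Slc1a2, Axin2 and Tbx3 stand for the innermost layer of cells, with 8 probe sets. Oat, Lect2, Cyp2e1, Cyp1a2 and Lhpp were grouped as the wider pericentral zone, with 5 probe sets. These arrays do not hold the position of a cell, so how far each gene reaches from the vein was not measured.

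The cells were primary hepatocytes from C57BL/6 mice, wild type and 3 weeks old. Living cells were stained with Hoechst 33342, a DNA dye, and sorted into a diploid and a tetraploid fraction, each with 3 arrays called biological replicates. Both fractions share strain, age, genotype and sort, and neither received a treatment. The labels do not say whether replicates were separate mice or pools, so p-values reflect only how far these samples spread, and part of that may be technical. A gate on DNA content can also take diploid cells in G2 or mitosis into the tetraploid fraction.

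Blood enters the lobule at the portal tract and leaves through the central vein, and hepatocytes along this path express different genes. Endothelial cells of the central vein secrete Wnt ligands and R-spondin 3, which stabilise beta-catenin in the nearest hepatocytes, where it acts with TCF/LEF factors on target genes. The innermost hepatocytes take up ammonium and glutamate and make glutamine from them, while drug-metabolising cytochrome P450 enzymes extend over a broader pericentral band. The comparison asks whether diploid and tetraploid cells differ in these genes, and whether the innermost layer differs from the wider zone in this respect.

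Upstream sequences are shown for a pair of genes from which the TCF/LEF letters were missing in this window, Glul and Oat, and for the pair of cytochrome P450 genes in which they were found. RefSeq promoter windows on build GRCm38.p6 matched 7 of the 10 genes; Rhbg, Tbx3 and Lhpp had no entry. The 250 bases before the annotated start are given on the strand of the gene, at chr1:153899679-153899928 (+) for Glul, chr7:132576399-132576648 (-) for Oat, chr7:140763569-140763818 (+) for Cyp2e1 and chr9:57683656-57683905 (-) for Cyp1a2. Capitals mark the TCF/LEF heptamers CTTTGAT, in 3.21% of all windows, CTTTGAA, in 4.46%, CTTTGTT, in 5.03%, and CTTTGTA, in 3.2%, on either strand, and the TATA box letters TATAAA.
Glul: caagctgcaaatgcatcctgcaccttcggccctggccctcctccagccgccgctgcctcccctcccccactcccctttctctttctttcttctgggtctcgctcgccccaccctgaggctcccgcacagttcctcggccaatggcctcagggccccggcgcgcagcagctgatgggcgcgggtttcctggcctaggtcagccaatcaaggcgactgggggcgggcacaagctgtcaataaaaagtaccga
Oat: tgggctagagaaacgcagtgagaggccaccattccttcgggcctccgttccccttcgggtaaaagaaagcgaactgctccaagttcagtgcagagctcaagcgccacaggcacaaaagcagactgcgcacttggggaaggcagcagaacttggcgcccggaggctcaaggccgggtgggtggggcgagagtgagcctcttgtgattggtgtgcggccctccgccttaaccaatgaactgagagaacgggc
Cyp2e1: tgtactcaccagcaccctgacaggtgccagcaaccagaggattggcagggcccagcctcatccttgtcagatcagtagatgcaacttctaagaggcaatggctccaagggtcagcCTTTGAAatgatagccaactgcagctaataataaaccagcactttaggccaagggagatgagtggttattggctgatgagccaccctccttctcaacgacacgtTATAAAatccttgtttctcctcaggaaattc
Cyp1a2: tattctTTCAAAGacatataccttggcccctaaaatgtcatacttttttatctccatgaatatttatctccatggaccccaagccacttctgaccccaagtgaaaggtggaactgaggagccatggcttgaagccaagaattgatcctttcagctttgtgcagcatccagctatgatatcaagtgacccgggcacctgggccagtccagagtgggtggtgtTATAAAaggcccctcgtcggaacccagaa

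A heptamer lay in 4 of the 7 windows, those of Slc1a2, Lect2, Cyp2e1 and Cyp1a2, and in 14.8% of all 32851 windows of this length. In Lect2 it was CTTTGAT, read on the opposite strand, 32 to 26 bases before the start. TATAAA stood 31 to 26 bases before the start of Cyp2e1 and 29 to 24 bases before that of Cyp1a2, and was found in 12.4% of all windows. The HNF4A motif CAAAGTCCA, which shares the letters CAAAG with a TCF/LEF site, was in 0 of the 7 windows and in 0.384% of all. The Glul window had a GC content of 64.8% and that of Oat 60.0%, against 48.8% for Cyp2e1, 47.2% for Cyp1a2 and a median of 52.4% over all windows. These matches describe letters in short windows only.

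Among the genes of the wider zone, all 5 had a higher mean in tetraploid cells, by 0.07 to 0.27 on the log2 scale, and in Oat, Lhpp and Cyp2e1 every tetraploid array was above every diploid array. In the innermost layer Glul and Rhbg had lower means, Slc1a2 was nearly level, Axin2 and Tbx3 had higher means, and all 5 overlapped between the fractions. By limma, with Benjamini-Hochberg adjustment over all probe sets, 0 of the 13 probe sets passed an adjusted p of 0.05, as did 0% of all 22626. At an unadjusted p under 0.05 there were 2 of 13, Oat and Lhpp, both higher, against 6.9% of all probe sets, 3.35% higher and 3.55% lower. That count was 0 without diploid replicate 3 and 4 without diploid replicate 1, where Axin2 and Lect2 joined, and 4 with the replicate number as a block, where Tbx3 and Lect2 joined. It was 1, Oat, without tetraploid replicate 1, and without tetraploid replicate 3 the 2 were Lhpp and Tbx3. With another variance model, eBayes with trend and robust, it was 3, where Cyp2e1 joined. Fractions did not overlap for 3 of the 13, all higher in tetraploid cells, against 12.7% of all probe sets in either direction, 5.95% higher and 6.77% lower. Means were higher in tetraploid cells for 10 of the 13 and for 48.1% of all probe sets and lower for 51.9%.

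Values below are log2 of the deposited intensity, a unit in which a step of 1 is a doubling. The authors' processing gave all arrays almost equal distributions, so a difference compares a transcript with the rest of its array, and a change in total RNA per cell cannot be seen. Fewer cells of a type and less RNA of a gene per cell cannot be told apart in these bulk samples. Levels are not ranked between genes, since probe sets differ in how brightly they bind.

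Glul encodes glutamine synthetase, which joins ammonium to glutamate and marks a rim of hepatocytes a few cells wide. Its brighter probe set was at 10.58, 10.81 and 10.74 on diploid arrays 1 to 3 and at 10.46, 10.52 and 10.82 on tetraploid arrays 1 to 3. Tetraploid replicates 1 and 2 were below all diploid arrays, while tetraploid replicate 3 was as high as the highest diploid array. The log2 difference was -0.11 ± 0.12 (SE, n = 3 per fraction), with a 95% interval from -0.37 to 0.15 and an adjusted p = 0.89 by limma. It was -0.22 without tetraploid replicate 3 and -0.04 without tetraploid replicate 1. The second Glul probe set averaged 9.17 ± 0.05 over diploid and 9.16 ± 0.16 over tetraploid arrays (SD, n = 3) and differed by -0.01 ± 0.10 (SE).

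Rhbg encodes a channel through which ammonium and ammonia enter these cells. It was at 6.59, 6.51 and 6.38 on the diploid arrays and at 6.30, 6.35 and 6.65 on the tetraploid arrays. Again tetraploid replicate 3 was the highest array of all, and the other tetraploid arrays were the lowest of all. The log2 difference was -0.06 ± 0.11 (SE), with a 95% interval from -0.32 to 0.20, and it was 0.0070 without tetraploid replicate 1.

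Slc1a2 encodes a high-affinity glutamate transporter, known as GLT-1, which supplies the substrate of glutamine synthetase. Diploid arrays were tightly placed at 6.74, 6.78 and 6.83, whereas tetraploid arrays lay at 6.53, 6.83 and 7.13, below, level with and above them. The difference was 0.04 ± 0.14 (SE), with a 95% interval from -0.28 to 0.37, and it became -0.11 without tetraploid replicate 3 and 0.19 without tetraploid replicate 1.

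Axin2 encodes a scaffold of the complex that degrades beta-catenin and is a target of the pathway it restrains. It was at 6.13, 5.67 and 5.53 on the diploid arrays and at 6.17, 6.04 and 5.81 on the tetraploid arrays. In each fraction replicate 1 was the highest and replicate 3 the lowest. The difference was 0.23 ± 0.16 (SE), with a 95% interval from -0.14 to 0.60, 0.41 without diploid replicate 1 and 0.11 without diploid replicate 3. A second probe set for Axin2 at 4.07, among the dimmest 25% of all probe sets (below 4.82), differed by 0.02 ± 0.12.

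Tbx3 encodes a T-box repressor that is a beta-catenin target in liver. Diploid arrays were at 7.82, 7.35 and 7.42 and tetraploid arrays at 8.50, 7.84 and 7.55. Tetraploid replicate 1 was far above the rest, and tetraploid replicate 3 was below diploid replicate 1. The difference of 0.43 ± 0.23 (SE) was the largest of the 10 genes, with the widest 95% interval, from -0.10 to 0.97, and an adjusted p = 0.788 by limma. Without tetraploid replicate 1 it was 0.16, and a second, dimmer Tbx3 probe set differed by 0.11 ± 0.10.

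**Figure D1:**
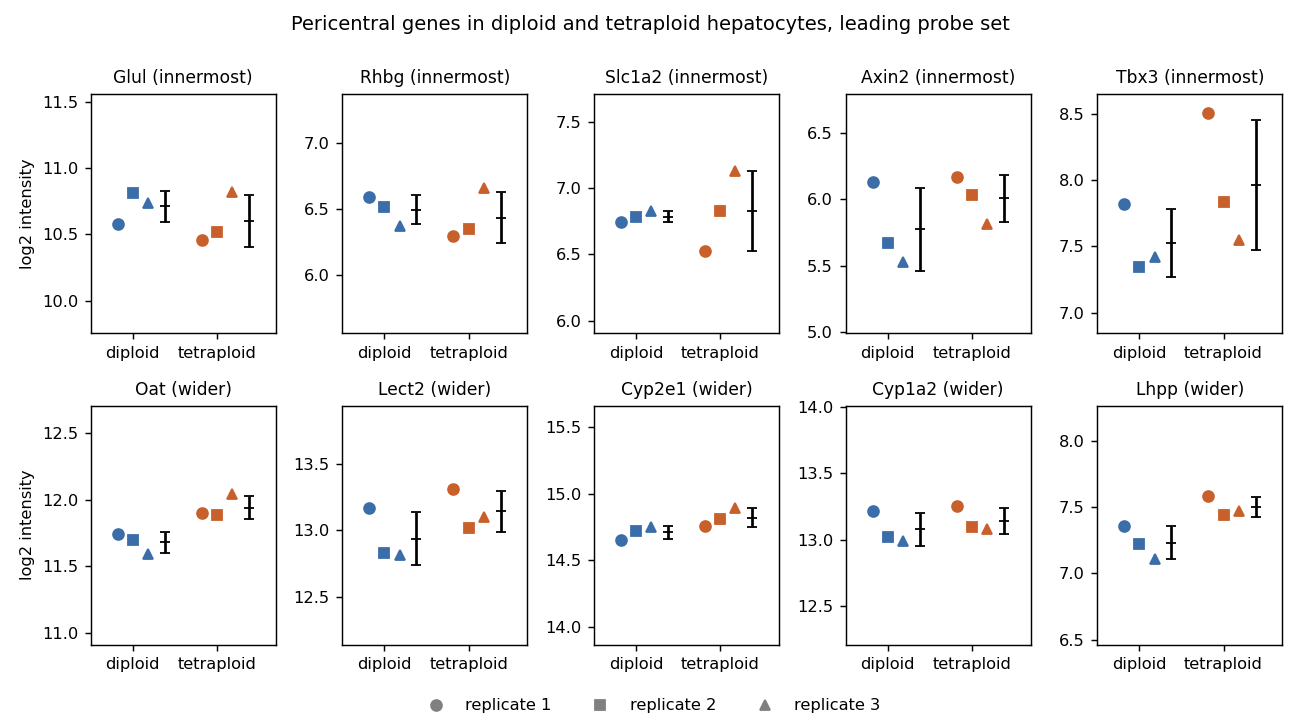
Log2 intensity (vertical axis, the same span of log2 units in every panel) of the leading probe set of the 10 genes on the 3 diploid (blue) and 3 tetraploid (orange) arrays, with marker shapes for replicate numbers and black bars for the mean ± SD. Tetraploid arrays lie above all diploid arrays for Oat, Cyp2e1 and Lhpp, and the fractions overlap for the other genes.

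Oat encodes ornithine aminotransferase, which turns ornithine into a precursor of glutamate in pericentral cells. Diploid arrays were at 11.74, 11.70 and 11.59 and tetraploid arrays at 11.90, 11.88 and 12.04. All tetraploid arrays were above all diploid arrays, and the gap between the fractions was slightly narrower than the range within each. The difference was 0.26 ± 0.08 (SE, n = 3 per fraction), a 1.20-fold higher level with a 95% interval from 1.05-fold to 1.37-fold, an unadjusted p = 0.014 and an adjusted p = 0.653 by limma.

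Lhpp encodes a phosphatase that acts on phosphohistidine and pyrophosphate. It was at 7.36, 7.22 and 7.11 in diploid and at 7.58, 7.44 and 7.47 in tetraploid cells. The lowest tetraploid array exceeded the highest diploid array. The difference was 0.27 ± 0.09 (SE), 1.20-fold with a 95% interval from 1.04-fold to 1.39-fold, an unadjusted p = 0.0178 and an adjusted p = 0.682 by limma.

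Cyp2e1 encodes the cytochrome P450 that oxidises ethanol and paracetamol. Diploid arrays were at 14.66, 14.72 and 14.75 and tetraploid arrays at 14.76, 14.81 and 14.90, so the fractions touched without overlapping. The difference was 0.11 ± 0.08 (SE), 1.08-fold, with a 95% interval from -0.07 to 0.29 in log2 units. This probe set was brighter than 99.8% of all probe sets, close to the upper end that equalising the arrays fixes, where a difference may be compressed.

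Lect2 encodes a protein secreted by hepatocytes, and was at 13.17, 12.83 and 12.82 in diploid and 13.31, 13.02 and 13.10 in tetraploid cells. Diploid replicate 1 was above a pair of tetraploid arrays, and the difference was 0.21 ± 0.12 (SE), with a 95% interval from -0.08 to 0.49. It was 0.12 without tetraploid replicate 1 and 0.32 without diploid replicate 1. Cyp1a2, a cytochrome P450 that clears caffeine and is also induced through the aryl hydrocarbon receptor, was at 13.22, 13.02 and 12.99 in diploid and 13.26, 13.09 and 13.08 in tetraploid cells. Its difference of 0.07 ± 0.09 (SE) had a 95% interval from -0.15 to 0.28, with overlapping fractions, and ran from 0.0095 without tetraploid replicate 1 to 0.14 without diploid replicate 1.

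**Figure D2:**
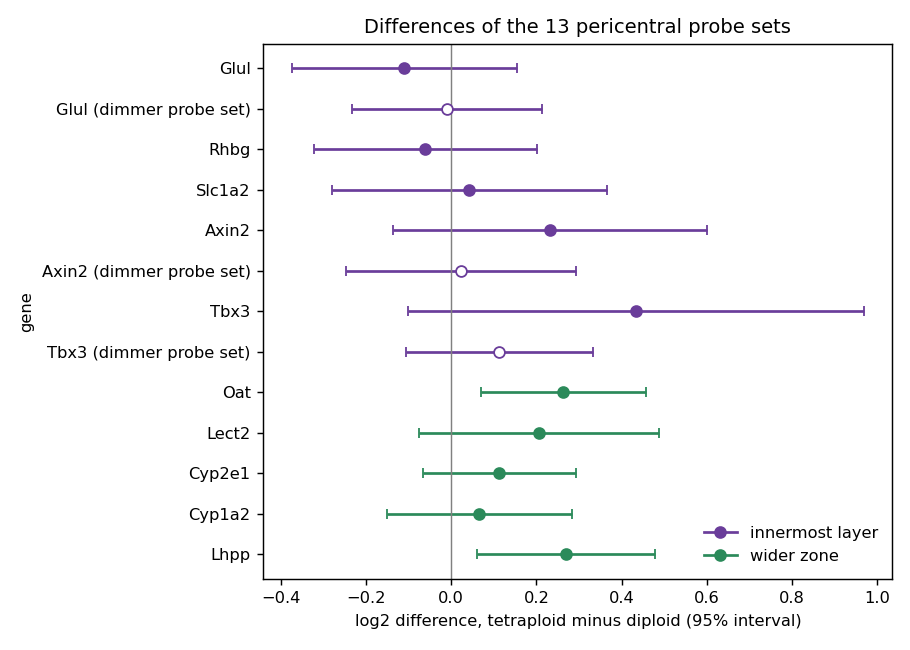
Log2 difference, tetraploid minus diploid (horizontal axis), of the 13 probe sets, with 95% intervals from limma. Filled points are leading probe sets and open points the dimmer ones; the intervals of Oat and Lhpp alone lie above 0.

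The layers were then set side by side, with the brightest probe set of each gene and no test, because the genes were chosen with earlier results known. Of the 5 wider-zone genes, 5 had a higher tetraploid mean and the median difference was 0.21. Of the 5 innermost genes, 3 had a higher mean and 2 a lower one, with a median of 0.04. Over all 12393 genes the median difference was -0.02, with 44.5% of genes higher and 55.5% lower by their mean.

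Each gene was centred on its own average over the 6 arrays, and a layer score per array was the mean of its 5 centred genes. The wider-zone score was 0.01, -0.12 and -0.17 on the diploid arrays and 0.14, 0.03 and 0.10 on the tetraploid arrays, which lay above them. The innermost score was 0.06, -0.09 and -0.13 on the diploid arrays and 0.08, 0.0020 and 0.08 on the tetraploid arrays, so diploid replicate 1 lay among the tetraploid arrays. Taken within each array, the wider minus the innermost score was -0.05, -0.03 and -0.03 in diploid and 0.07, 0.03 and 0.02 in tetraploid cells. Its mean differed by 0.08 between the fractions, with an SD over arrays of 0.02 pooled over the fractions. Shifts that both layers share on an array drop out of this value. The mean of the wider-zone score itself differed by 0.18 and that of the innermost score by 0.11, each with a pooled SD of 0.08. The median difference of the innermost genes, another measure than the score, depended on single arrays. It was -0.11 without tetraploid replicate 3 and 0.15 without tetraploid replicate 1. Of the 5 gene differences behind the innermost score, that of Tbx3, 0.43, was the largest.

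**Figure D3:**
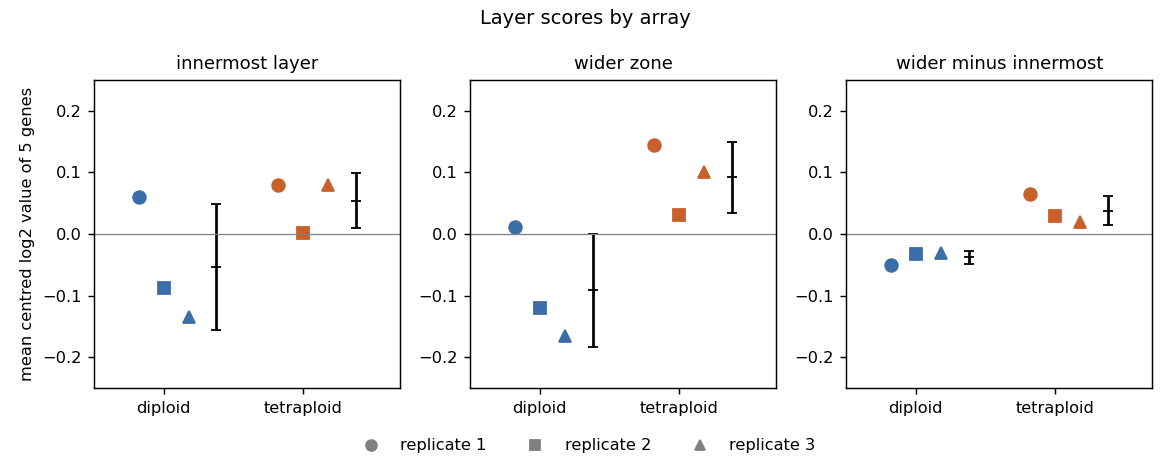
Score of the innermost layer, of the wider zone and their difference (vertical axes, mean centred log2 value of 5 genes) for the 3 diploid and 3 tetraploid arrays, with black bars for the mean ± SD. Fractions overlap for the innermost layer, and do not for the wider zone or the difference.

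The innermost genes did not vary together from array to array. Glul, Rhbg and Slc1a2, the glutamine-making trio of enzyme, ammonium channel and glutamate transporter, were highest on tetraploid replicate 3 and lowest, among tetraploid arrays, on replicate 1. Axin2 and Tbx3, a feedback inhibitor and a transcription factor, showed the opposite order within the tetraploid fraction. Over the 6 arrays, which include the fraction difference, Pearson's r was 0.63 for Glul with Rhbg, 0.72 for Glul with Slc1a2 and 0.84 for Axin2 with Tbx3. It was -0.83 for Glul with Axin2 and -0.88 for Glul with Tbx3. The 5 genes Axin2, Tbx3, Lect2, Cyp1a2 and Lhpp were highest on replicate 1 in both fractions, an order shared by 19.4% of all genes. Among tetraploid arrays, Oat and Cyp2e1 were highest on replicate 3 with Glul, Rhbg and Slc1a2, so this split crossed the layers. The median r was -0.30 over the 10 pairs within the innermost layer and 0.68 over the 10 pairs of the wider zone. Between the layers it was 0.10 over 25 pairs, with 0.89 for Axin2 and 0.88 for Tbx3 with Lect2. Within the wider zone, Cyp2e1 had r = 0.05 with Lect2 and -0.27 with Cyp1a2. Diploid replicate 1 also had the lowest limma array weight, 0.62, against 0.94 to 1.31 for the other arrays; its part in these values is given by the differences without it.

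**Figure D4:**
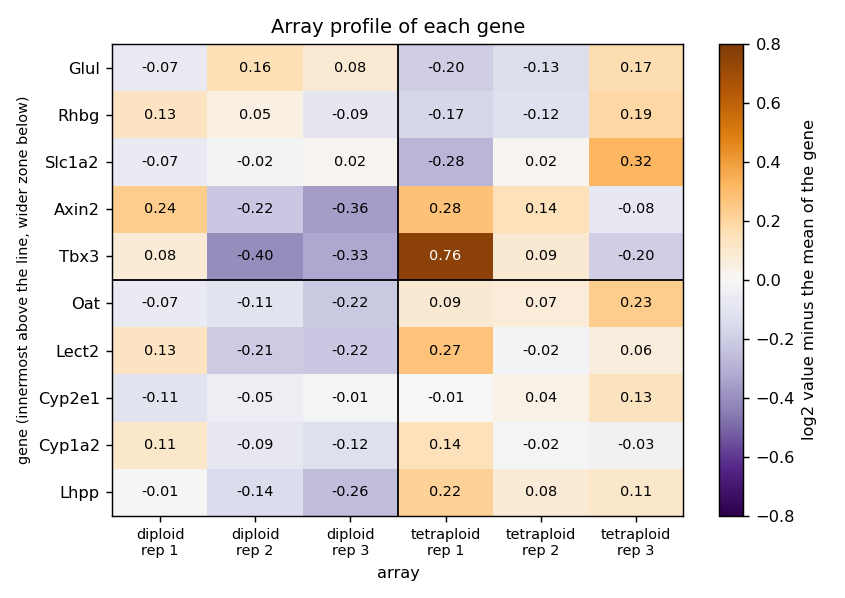
Log2 value minus the mean of the gene over 6 arrays (colour and printed number) for each gene (rows, innermost layer above the line) on each array (columns). Tbx3 reaches 0.76 on tetraploid replicate 1, where Glul, Rhbg and Slc1a2 are at their lowest, and the wider-zone genes are mostly below 0 on diploid and above 0 on tetraploid arrays.

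Genes whose profile over the 6 arrays was most like that of Glul, among 9884 above the dimmest 25% of probe sets, were Rtn4ip1, Rufy1, Plekhs1, AY036118 and Fbxo4, with Pearson's r from 0.97 to 0.99. For Oat they were Nt5c2, Itm2a, Rab8a, Anpep and Cyp2c39, each with r = 0.98. With 6 arrays and so many genes such values are a description only. None of these 10 genes was on the lists below, and Cyp2c39 is a cytochrome P450.

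Other pericentral genes leaned the same way as the wider zone. Of 46 listed, 37 were measured, 30 with a higher and 7 with a lower tetraploid mean, and the median difference was 0.07. By limma 0 passed the adjusted p, 6 were higher and 1 lower at an unadjusted p under 0.05, against 5.86% of all genes, 1.84% higher and 4.02% lower. Diploid and tetraploid arrays were separate for 9 of the 37, 8 higher and 1 lower, where 11.8% of all genes were separate, 4.37% higher and 7.43% lower.

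Gulo, which completes vitamin C synthesis, was at 11.56, 11.36 and 11.29 in diploid and 11.71, 11.61 and 11.75 in tetraploid cells, a difference of 0.29 ± 0.09 (SE). Avpr1a, the vasopressin receptor of hepatocytes, differed by 0.25 ± 0.08, and its second probe set by 0.28. Slco1b2, a transporter that takes up bile acids and drugs, differed by 0.30 ± 0.09, and its other 4 probe sets by 0.13 to 0.76. All 3 genes had fractions that did not overlap. They had the 3 smallest unadjusted p-values by limma of the 37 measured, so they do not stand for the list. Of the 7 with a lower mean, Sult5a1, named after its values were seen, differed by -0.36 ± 0.15, also with separate fractions.

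Of further Wnt targets, Lgr5 and Rnf43 mark cells next to the central vein. Notum, Sp5 and Nkd1, given with the feedback inhibitors below, differed by 0.07, 0.0047 and -0.04. Lgr5, the R-spondin receptor, was at 6.76, 6.40 and 6.53 in diploid and 6.82, 6.92 and 6.82 in tetraploid cells, a difference of 0.29 ± 0.10 (SE) between separate fractions, with an unadjusted p = 0.0224 by limma. Rnf43, a ubiquitin ligase that removes Wnt receptors, was at 6.63, 5.96 and 6.32 in diploid and 7.02, 6.32 and 6.72 in tetraploid cells. It differed by 0.38 ± 0.21 (SE), with overlapping fractions, and by 0.21 without diploid replicate 2 and 0.57 without tetraploid replicate 2. Lgr5 and Rnf43 belong to cells near the vein, as Glul does, yet their means were higher in tetraploid cells and that of Glul was not. This contrast was not tested.

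Lists of the Wnt machinery itself had medians from -0.05 to 0.08, with single genes that differed as much as the pericentral members. The highest median, of receptors and membrane regulators, was close to the 0.07 of the other pericentral genes. Lgr5 and Rnf43 were counted in both of these lists. Of 18 measured receptors and membrane regulators, 12 had a higher and 6 a lower tetraploid mean, with a median of 0.08, and Lgr5 and Porcn, 2 of the 18, were higher at an unadjusted p under 0.05, against 1.84% of all genes. Porcn, which attaches the lipid that Wnt ligands need, differed by 0.22 ± 0.08. The co-receptor Lrp6 differed by 0.03 ± 0.07, and its dimmer probe set by 0.23. Of 16 components and regulators of the destruction complex, 6 had a higher and 10 a lower mean, with a median of -0.01 that changed sign under 6 alternatives, and 0 passed the unadjusted threshold. The scaffold Apc was higher on every tetraploid array, by 0.15 ± 0.07, while its other probe sets differed by -0.05 and 0.18.

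Ctnnb1, which encodes beta-catenin, was at 12.55, 12.56 and 12.56 in diploid and 12.58, 12.62 and 12.60 in tetraploid cells, a difference of 0.04 ± 0.07 (SE). Its dimmer probe sets differed by 0.22 and 0.55, so the size depended on the probe set. Tcf7l2, the main TCF factor of hepatocytes, differed by -0.01 ± 0.07 on its brightest probe set and by -0.10 to 0.32 on the other 3. Among 12 measured genes of beta-catenin and its transcription partners, 5 had a higher and 7 a lower mean, and the median was -0.0038, with a sign that turned under 5 alternatives. Ctnnbip1, which blocks the binding of beta-catenin to TCF factors, differed by -0.25 ± 0.12, and its dimmer probe set by -0.34. The corepressor Tle3 differed by 0.34 ± 0.17, or 0.20 without diploid replicate 3, though both other Tle3 probe sets differed by -0.04. Lef1, at 3.95 ± 0.02 in diploid cells (SD, n = 3), was among the dimmest 25%.

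Secreted and feedback inhibitors had a lower tetraploid mean in 11 of 16 genes, with a median of -0.05 that turned to 0.03 without diploid replicate 1. The Wnt deacylase Notum differed by 0.07 ± 0.11 and turned to -0.02 without tetraploid replicate 1. Nkd1, a cytoplasmic inhibitor among the dimmest 25%, differed by -0.04 ± 0.14 and turned to 0.13 without tetraploid replicate 2. Sp5, a transcription factor induced by Wnt, differed by 0.0047 ± 0.11 and turned to -0.08 without diploid replicate 2. Sfrp1, a decoy for Wnt ligands, differed by -0.29 ± 0.16, and by -0.11 without diploid replicate 1, and its other 3 probe sets by -0.24 to 0.14.

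Of 19 measured Wnt ligands and R-spondins, 8 were among the dimmest 25%, 7 had a higher and 12 a lower mean, and the median was -0.05, turning to 0.0051 without diploid replicate 1. Wnt2 and Wnt9b, which endothelial cells of the central vein make, differed by -0.11 ± 0.11 and 0.06 ± 0.09. Wnt2 was among the dimmest 25%, and Wnt9b turned to -0.02 without tetraploid replicate 1. Wnt7a differed by -0.26 ± 0.09 and was the 1 ligand with an unadjusted p under 0.05 by limma. Over all genes 4.02% were lower at that threshold.

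The route of glutamate and ammonia was also followed outside the 10 genes. Of 24 measured genes, 7 had a higher and 17 a lower tetraploid mean, and the median was -0.06. Aldh4a1, which makes glutamate from the product of Oat, was at 8.71, 8.64 and 8.69 in diploid and 8.94, 8.86 and 8.88 in tetraploid cells, a difference of 0.21 ± 0.07 (SE) between separate fractions. Slc1a4, a carrier of small neutral amino acids, differed by 0.47 ± 0.17, with overlapping fractions, and its other probe sets by 0.10 and 0.18. Slc1a5, a glutamine carrier, differed by -0.24 ± 0.10. Glud1, glutamate dehydrogenase, differed by 0.03 ± 0.07, the hepatocyte glutamine transporter Slc38a3 by -0.07 ± 0.09, and the ammonium channel Rhcg by -0.14 ± 0.08.

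Periportal genes, from the other end of the lobule, gave the counterpart. Of 26 measured, 22 had a lower and 4 a higher tetraploid mean, with a median of -0.12. At an unadjusted p under 0.05 by limma 9 were lower and 0 higher, against 4.02% lower and 1.84% higher over all genes, and 0 passed the adjusted p. The fractions were separate for 14 of the 26, all lower, against 7.43% of all genes in that direction. Hsd17b6, a steroid dehydrogenase, differed by -0.48 ± 0.09, although a second probe set differed by 0.20, and Hal, which starts histidine breakdown, by -0.39 ± 0.10. Cps1, the ammonia-fixing enzyme of the urea cycle, differed by -0.03 ± 0.08 and turned to 0.0096 without tetraploid replicate 1.

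**Figure D5:**
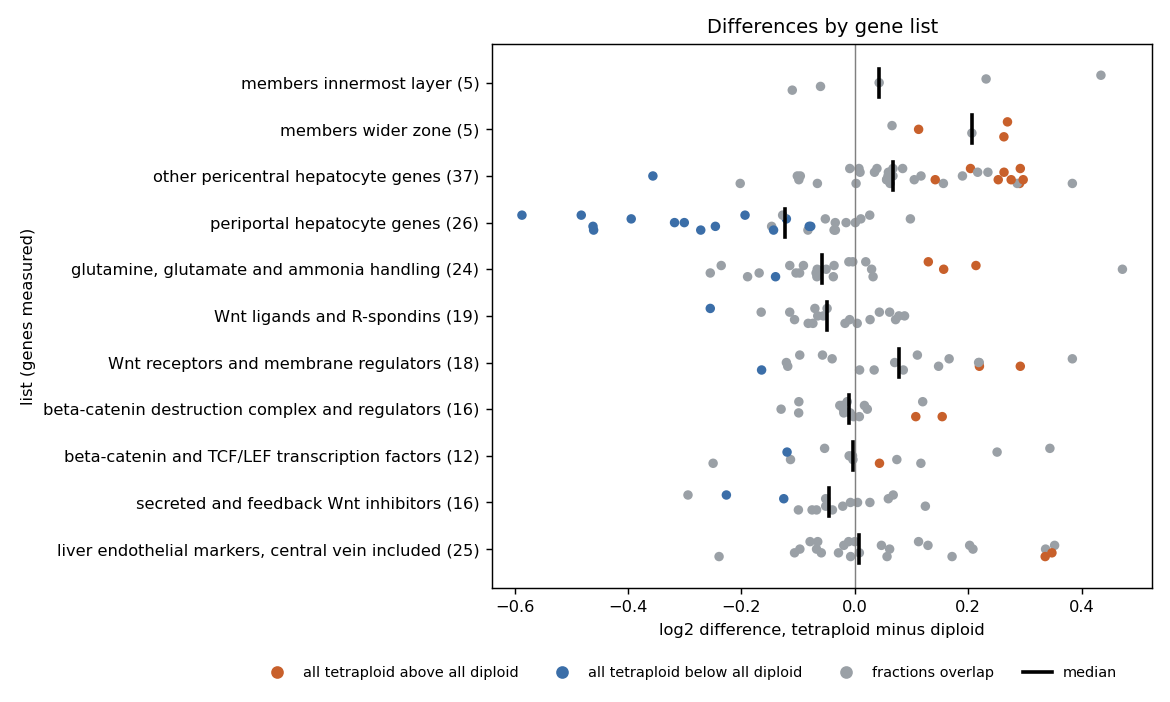
Log2 difference, tetraploid minus diploid (horizontal axis), of every measured gene of 11 lists (rows, number of genes in parentheses), 1 point per gene, with a black bar at the median and colour for whether the fractions overlap. The wider-zone median of 0.21 lies above those of the other lists, and the periportal median is -0.12.

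Markers of other cells were counted because sorted hepatocytes can carry them along. All 17 measured hepatocyte markers were above the dimmest 25%, and their median difference was -0.02. Of 25 measured endothelial markers, 9 were among the dimmest 25%, 14 had a higher and 11 a lower tetraploid mean, and the median was 0.0079. Their summed intensity ran from 1578 to 1714 on the diploid and from 1670 to 1928 on the tetraploid arrays. Mrc1, Fcgr2b and Clec4g, of liver sinusoids, were the 3 of 25 at an unadjusted p under 0.05 by limma. All 3 were higher, against 1.84% of all genes in that direction, and differed by 0.35 ± 0.13, 0.34 ± 0.13 and 0.34 ± 0.14 (SE). The other probe sets of Fcgr2b differed by 0.02 to 0.27 and that of Clec4g by -0.05. Lyve1 differed by 0.35 ± 0.19, and its other probe set by -0.11. Further markers, named after their values were seen, went both ways. Oit3 and Gpr182 had higher means, by 0.20 and 0.11, and Stab2 and Stab1 lower means, by -0.24 and -0.06. The part of endothelial RNA in the pericentral values was not tested.

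Summed intensities of Kupffer cell markers ran from 4210 to 5168 in diploid and 4328 to 4700 in tetraploid cells, with 3 of 14 in the dimmest 25%. Of that sum 86.6% to 88.8% came from Slc40a1, the iron exporter, and without it the ranges were 559 to 627 and 505 to 598. For stellate cell markers they ran from 1028 to 1154 and from 1094 to 1139, with 5 of 15 dim. Cholangiocyte markers ran from 811 to 1322 and from 824 to 1156, with 3 of 8 dim. Prom1 gave 71.3% to 81.8% of that sum, and without it the ranges were 214 to 241 and 215 to 219. Blood cell markers ran from 662 to 677 and from 630 to 659, with 7 of 14 dim. Immediate-early genes, which respond to cell isolation, scored 0.06, -0.21 and 0.04 on the diploid and 0.11, 0.07 and -0.07 on the tetraploid arrays, highest on tetraploid replicate 1 as Tbx3 was. Their part in the values of Tbx3 and Axin2 was not tested. Array medians and correlations were close over the whole series, with Pearson's r across probe sets from 0.992 to 0.997 over 15 pairs of arrays.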

How the data were processed

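Expression was measured on 6 Affymetrix arrays, 3 per fraction, grouped by the sample titles. The deposited intensity values, 1 per probe set, are on a linear scale and were made with RMA, per the submitters' processing notes; its version was not given in the sources used here. Their scale was read from the values. RMA corrects background, equalises the arrays and summarises probes, so differences are relative and compressed near either end of the range. The number of arrays limits the precision, with a median SE of 0.10 for a log2 difference.

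Values were turned to log2 without a pseudocount. Of 22690 probe sets, 64 controls were left out, and 22626 were fitted with limma 3.58.1 in R 4.3.3 (lmFit, eBayes, two-sided), ploidy as the single factor, with Benjamini-Hochberg adjustment over all of them. No filter was used. The annotation gave 1 symbol to 20380 probe sets, several to 691 and none to 1555, and the last 2 kinds were not named. For gene lists, the probe set with the highest mean stood for each of 12393 genes. Alternatives covered filters, normalization, a pseudocount of 32, array weights, the variance model, a replicate block and each array left out.

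Genes named are the 10 members, from each other list at most 4 genes ranked by unadjusted p, and well-known reference genes. Of the latter Rspo3, Lgr4, Znrf3, Tcf7 and Gls2 matched no probe set by a single symbol. Members and lists were chosen with earlier results of these data known. Deviations from the fraction means correlated between same-numbered arrays at replicate 1 but not at replicates 2 and 3, so no block was used. Those of diploid replicate 3 correlated with those of tetraploid replicate 2, and a pairing in another order was not tested.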

Additional observations from a re-analysis of the deposited data

How the results depend on the processing

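No alternative brought a member past an adjusted p of 0.05 in limma; over all of them the lowest adjusted p was 0.43, for Oat. The 10 leading differences kept their sign under every alternative except Rhbg and Slc1a2. When single arrays were left out, Rhbg ran from -0.17 to 0.0070 and Slc1a2 from -0.11 to 0.19, and the dimmer probe sets of Glul and Axin2 from -0.0668 to 0.0802 and from -0.0874 to 0.0905. The number of probe sets past the threshold, 0, was 0 to 1 in those fits, the 1 being Hells without tetraploid replicate 1. Without the dimmest 50% of probe sets the innermost median was -0.0089. With single arrays left out it ran from -0.11 to 0.15, the wider-zone median from 0.14 to 0.30 and the layer difference from 0.06 to 0.08. The layer difference was 0.11 without the dimmest 50% of probe sets, which drops Axin2, and 0.12 with the mean over all probe sets of a gene. With the replicate number as a block, 10 probe sets passed, 0 of them members. Same-numbered arrays had correlations of deviations of 0.44, -0.15 and -0.16, so the numbers were not taken to pair the samples. Diploid replicate 3 had 0.56 with tetraploid replicate 2, and diploid replicate 2 had 0.24 with tetraploid replicate 3. Whether the samples were paired in another order was not tested, and the main fit takes them as unpaired. Quantile, cyclic loess and median scaling moved the median of all probe sets by under 0.1. Adding 32 to the intensities before log2 brought Porcn to 0.12, Slc1a5 to -0.12, Cd79a to -0.21 and Cd52 to -0.15. Dim probe sets limit what can be said of Axin2, Wnt ligands and feedback inhibitors.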

Other observations

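Oat and Lhpp, the members whose intervals lay above 0, are neighbours on chromosome 7. In the RefSeq order of GRCm38.p6, 2 genes lie between them, of which 1 codes for protein, Nkx1-2. Nkx1-2, a homeobox gene near the array background at a mean log2 value of 4.92, had a difference of 0.13 ± 0.09 (SE), and its fractions overlapped. Beyond Lhpp, the non-coding gene 1500002F19Rik, at a mean log2 value of 4.33, differed in the other direction, by -0.23 ± 0.11 (SE), also with overlapping fractions. This neighbourhood was noticed after the values were seen, and no test bears on it.

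Markers of mid-lobule hepatocytes had lower tetraploid means in 6 of 6 genes, with a median of -0.12. Cyp8b1, which directs bile acid synthesis towards cholic acid, was lower on every tetraploid array, by -0.18 ± 0.09 (SE), and 0 of the 6 reached an unadjusted p under 0.05 by limma. Hamp, the iron hormone hepcidin, differed by -0.17 ± 0.25 and turned to 0.07 without tetraploid replicate 2. Of 14 measured blood cell markers, 5 had a higher and 9 a lower tetraploid mean, with a median of -0.06. At an unadjusted p under 0.05 by limma 2 were lower, against 4.02% of all genes. Those were the B cell receptor subunit Cd79a, with a difference of -0.42 ± 0.09 at a diploid log2 value of 5.20, and the lymphocyte antigen Cd52, with -0.31 ± 0.11. Other B cell markers, named after their values were seen, differed by 0.07 (Cd79b) and 0.13 (Ms4a1).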
